A study of Homo sapiens with 6 samples.

Results

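The genes described here are the core of the death-inducing signalling complex and of necroptosis: FADD, CASP8, CFLAR, TNFRSF10A, TNFRSF10B, FAS, TNFSF10, RIPK3 and MLKL. These 9 genes were taken by name from a deposited table of 23002 genes. Of them 8 had a row, 7 were expressed highly enough to be tested, TNFRSF10A lay below that limit, and RIPK3 was not analysed here. The cells were U251, a human glioblastoma line long kept in culture, and their RNA was sequenced after lentiviral transduction with a non-targeting short hairpin RNA (sh-NC, 3 samples) or with one against TRAF2 (sh-TRAF2, 3 samples). Cells process such a hairpin to a small guide RNA, and transcripts that match the guide are lowered. Both groups were stable lines kept by puromycin selection, so a difference between the groups is also a difference between separately selected cells. The replicates are called biological by the submitters, but whether they came from separate transductions is not given in the sources used here, and p-values measure the spread between these samples.

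A death receptor such as FAS, TNFRSF10A or TNFRSF10B, once bound by its ligand, recruits the adaptor FADD, which in turn gathers procaspase-8 so that it can activate itself and start apoptosis. CFLAR encodes c-FLIP, a caspase-8 relative that lacks protease activity and controls this step. Where caspase-8 is not active, the kinases RIPK1 and RIPK3 can form another complex that phosphorylates MLKL, which then breaches the plasma membrane, a lytic death called necroptosis. TRAF2, the targeted gene, is an adaptor of the tumour necrosis factor (TNF) receptor that brings the ubiquitin ligases BIRC2 and BIRC3 to RIPK1.

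The study lists a pair of TRAF2 hairpin targets, and which one was sequenced is not named in the sources used here. They are shown because any member could share bases with them.

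sh-TRAF2#1: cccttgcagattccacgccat

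sh-TRAF2#2: ctggaccaagacaagattgaa

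Each target is 21 bases long and matches a TRAF2 transcript over its whole length. Among the members the longest run shared with either target was 10 bases, in CFLAR, and the other members shared 7 to 9. The median over the 11085 genes whose transcripts could be matched was 8 bases, so the members' transcripts hold no long match to either hairpin. Whether shorter matches such as these lower a member was not tested.

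Values are FPKM, fragments per kilobase of transcript scaled to sequencing depth. The steps between the FPKM values of a gene gave back whole reads, which came to between 33999558 and 36823562 reads on genes per sample. The comparison of the groups used limma, on log2(FPKM + 0.1) and over the 11870 genes whose FPKM averaged 0.5 or more, and a gene is said to have risen or fallen when its Benjamini-Hochberg adjusted p was under 0.05. TRAF2 itself had 15.1, 18.4 and 15.3 FPKM in the sh-NC samples and 3.26, 3.22 and 3.33 in the sh-TRAF2 samples. It was lower by 79.9% of the mean, with a log2 fold change of -2.27 (standard error 0.0791, limma adjusted p = 1.16e-06). The glioma genes VIM (1207.8 to 1606.2 FPKM), CD44 (176.7 to 191.6) and SOX2 (24.1 to 28.7) were high in every sample. The astrocyte gene GFAP reached at most 1.62 FPKM, and S100B was above 0 only in sh-TRAF2 replicate 2, at 0.0228 FPKM. Of the 7 glioma markers measured 5 were tested, of which VIM, NES and GFAP rose, where 23.7% of all tested genes did. The GFAP groups overlapped, and its call held in 2 of the 6 fits without 1 sample, those without sh-NC replicate 3 or sh-TRAF2 replicate 1 (limma adjusted p up to 0.132 in the others). Of the other cell type markers, 8 were measured and none was high enough to be tested, with a summed FPKM of 0.502 to 0.835 in sh-NC and 0.356 to 0.726 in sh-TRAF2. In bulk RNA, fewer cells with a transcript and less of it per cell cannot be told apart.

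FADD, TNFSF10 and CFLAR rose after TRAF2 knockdown, and CASP8 and TNFRSF10B fell. FADD more than doubled in level, TNFSF10 rose less evenly between samples, and the changes of the other called members ran from -23% to 18.9% of the sh-NC mean. In all, 3 of the 7 tested members were higher, where 23.7% of all tested genes were, and 2 were lower, where 20.9% were. The 5 members called in either direction stand against 44.6% of all genes, so a call at this threshold is common in these samples. Without sh-NC replicate 1 or without sh-TRAF2 replicate 2, FADD was the only member called higher, and the count of lower members was 2 in all 6 fits without 1 sample. The median log2 fold change was 0.24 over the members and 0.02 over all genes tested. The first is the value of MLKL, which was not called, and 4 members had a positive and 3 a negative log2 fold change. FADD was the only member past the thresholds of the study, which also ask for an absolute log2 fold change above 1. That holds for 0.986% of all tested genes in the direction of a rise and for 0.733% in the direction of a fall. Groups did not overlap for 6 of the 7 members, against 55.5% of all genes.

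The members spanned a wide range of levels. Per length of transcript, TNFRSF10B stood far above the rest in sh-NC, at a mean of 450.0 FPKM, which ranked 99th among all genes. FADD followed at 13.4 FPKM and CASP8 at 7.94, and then MLKL at 5.45 and CFLAR at 4.66, whose ranges overlapped. FAS (4.01), TNFSF10 (2.84) and TNFRSF10A (0.0243) closed the order without overlap. In sh-TRAF2 the order changed in the middle. TNFRSF10B and FADD kept their places, MLKL (6.41) and CASP8 (6.12) now overlapped, and so did CFLAR (5.54) with TNFSF10 (5.29) and TNFSF10 with FAS (3.76). The wide TNFSF10 range, 3.74 to 7.25 FPKM, also covered those of CASP8 and MLKL.

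The receptors were read first. TNFRSF10B encodes DR5, a receptor for the ligand TRAIL. Its FPKM was 451.0, 445.8 and 453.1 in sh-NC and 387.4, 385.2 and 400.1 in sh-TRAF2. All sh-TRAF2 samples lay below all sh-NC samples, and the spread within each group was small beside the gap. The mean fell from 450.0 ± 3.75 to 390.9 ± 8.04 FPKM (SD, n = 3), a change of -13.1%, with a log2 fold change of -0.20 (standard error 0.0278, limma adjusted p = 6.49e-04). It rests on 52848 to 67328 reads per sample, more than for any other member, and left out 1 sample at a time it stayed between -0.22 and -0.19.

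TNFRSF10A encodes DR4, the other death receptor for TRAIL. It had 6, 1 and 0 reads in the sh-NC samples and 1, 0 and 0 in the sh-TRAF2 samples, or 0.0626, 0.0104, 0, 0.0107, 0 and 0 FPKM. A count of 0 allows up to 3 reads, here about 0.03 FPKM, so most samples lie at or below what could be seen. The ratio of summed reads, sh-TRAF2 over sh-NC, was 0.149 with an exact 95% interval of 0.0033 to 1.16 for counting error only, and no difference was detectable at this depth. U251 cells thus held transcripts of 1 TRAIL death receptor at a high level and of the other at the limit of detection, in both groups.

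FAS encodes the receptor of FAS ligand. Its FPKM was 4.06, 4.02 and 3.96 in sh-NC and 3.67, 4.02 and 3.6 in sh-TRAF2. The second sh-TRAF2 sample reached the sh-NC range, so the groups overlapped. The log2 fold change was -0.09 (standard error 0.0672, limma adjusted p = 0.298), and the exact two-sided permutation test gave p = 0.3. Exons of FAS share 380 bases with ACTA2 on the other strand in GENCODE 29, and the use of strand in counting is not given in the sources used here. ACTA2 had 418, 429 and 380 reads in sh-NC and 471, 569 and 471 in sh-TRAF2, and rose by 0.35 on the log2 scale (limma adjusted p = 0.0185). Its part in the FAS values was not tested.

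**Figure D1:**
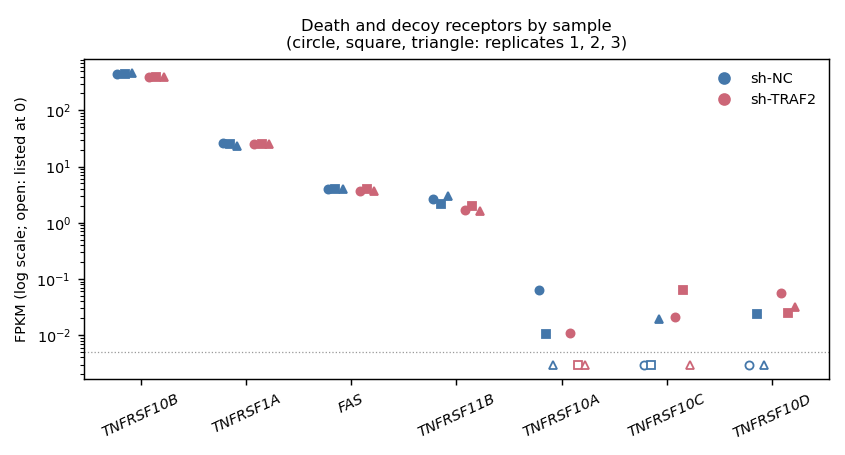
FPKM on a log scale of the death receptors TNFRSF10B, TNFRSF1A, FAS and TNFRSF10A and of the decoy receptors TNFRSF11B, TNFRSF10C and TNFRSF10D, by sample (sh-NC blue, sh-TRAF2 red, replicates 1, 2 and 3 as circle, square and triangle). Open symbols under the dotted line are samples listed at 0, and TNFRSF10B lies at 385.2 to 453.1 FPKM while TNFRSF10A and the decoys TNFRSF10C and TNFRSF10D lie below 0.1.

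Decoy receptors bind TRAIL without passing on a death signal. TNFRSF10C had 1 read over the sh-NC samples and 4 over the sh-TRAF2 samples. TNFRSF10D had 3 reads in sh-NC, all in replicate 2, against 7, 3 and 4 in sh-TRAF2, a read ratio of 4.86 with an exact 95% counting interval of 1.36 to 26.4. Both decoys were thus close to 0 in both groups. The secreted decoy TNFRSF11B, osteoprotegerin, was measured more firmly, at 2.66, 2.17 and 3.03 FPKM in sh-NC and 1.71, 2.02 and 1.65 in sh-TRAF2. It fell by 0.52 on the log2 scale (standard error 0.134, limma adjusted p = 0.0144), a call that was lost with no filter on low values (limma adjusted p = 0.053). TNFRSF10B, TNFRSF10C, TNFRSF10D and TNFRSF10A lie near each other on chromosome 8 in the RefSeq order (GRCh38.p14), and of the 4 only TNFRSF10B passed the limit on low values.

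TNFSF10 encodes TRAIL, the ligand of TNFRSF10A and TNFRSF10B. Its FPKM was 2.86, 1.97 and 3.70 in sh-NC and 3.74, 4.87 and 7.25 in sh-TRAF2, from 211 to 760 reads. The lowest sh-TRAF2 sample lay barely above the highest sh-NC sample, and within each group the highest value was 1.88 times (sh-NC) or 1.94 times (sh-TRAF2) the lowest. The mean was 2.84 ± 0.864 in sh-NC and 5.29 ± 1.79 in sh-TRAF2 (SD, n = 3), higher by 85.9%. On the log2 scale TNFSF10 rose by 0.86 (standard error 0.264, limma adjusted p = 0.0281). The call did not hold in 4 of the 6 fits without 1 sample: the log2 fold change was 0.63 without sh-NC replicate 2 (limma adjusted p = 0.0765) and 0.61 without sh-TRAF2 replicate 3 (limma adjusted p = 0.0806), and the call was also lost without sh-NC replicate 1 or sh-TRAF2 replicate 2.

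The samples in which TNFSF10 was low and high were those in which interferon-induced genes were. A textbook list of interferon-stimulated genes was read beside TNFSF10, chosen, like the other lists, with earlier results of these data known. Of its 23 tested genes, 19 rose and 0 fell, against 23.7% and 20.9% of all genes, with a median log2 fold change of 0.82 by limma. At an unadjusted p under 0.05 limma also had 0 lower, and limma-voom on the recovered reads had 1 lower, IRF1, which its adjusted p did not call. The genes that rose include ISG15, a ubiquitin-like protein (log2 fold change 1.11, limma adjusted p = 1.15e-04), GBP1, a guanylate-binding GTPase (1.07, limma adjusted p = 1.17e-04), and OASL, a relative of the oligoadenylate synthetases (1.02, limma adjusted p = 3.65e-04). As for TNFSF10, the lowest sh-NC sample was replicate 2 and the highest sh-TRAF2 sample was replicate 3 in 22 of the 23 genes (95.7%), against 15.4% of all tested genes and 1 of the 6 other members. The samples were also ordered within each group, without ranking the groups together. In both groups that order was the one of TNFSF10 in 18 of the 23 (78.3%), against 4.74% of all genes and 0 of the other members. This is a description over genes that share the same 6 libraries, and whether the interferon-induced genes have a part in the TNFSF10 difference was not tested.

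Start-site windows of the members, from the RefSeq table of GRCh38.p14 (250 bases before to 50 after the start), were read for TNFSF10 and FADD, the members with the largest fold changes. Capitals mark the motif found in each.

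TNFSF10 window, chr3:172523381-172523680, minus strand: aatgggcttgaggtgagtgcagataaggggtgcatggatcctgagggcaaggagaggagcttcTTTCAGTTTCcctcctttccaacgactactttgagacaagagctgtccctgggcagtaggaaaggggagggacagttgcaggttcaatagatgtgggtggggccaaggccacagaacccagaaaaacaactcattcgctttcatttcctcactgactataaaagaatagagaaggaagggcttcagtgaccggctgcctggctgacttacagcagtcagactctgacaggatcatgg

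FADD window, chr11:70203046-70203345, plus strand: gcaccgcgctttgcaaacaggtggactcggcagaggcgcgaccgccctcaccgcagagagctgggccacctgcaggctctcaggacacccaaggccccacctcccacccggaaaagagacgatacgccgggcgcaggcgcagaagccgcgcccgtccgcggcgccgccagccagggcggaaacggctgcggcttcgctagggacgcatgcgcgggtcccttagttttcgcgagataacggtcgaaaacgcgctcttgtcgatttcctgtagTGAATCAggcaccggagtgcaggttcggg

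In TNFSF10 the capitals are TTTCAGTTTC, a match on the other strand to the interferon-stimulated response element (GAAA, any 2 bases, GAAA), which begins at position -187 from the start site. In FADD they are TGAATCA at position 21, inside the transcript. This matches the AP-1 motif as it was searched, TGANTCA, which allows any base in the middle. Both strands were searched. The first motif is found in 3.57% and the second in 7.71% of the 35116 windows of the table, and neither match says that a factor binds there. The FADD window is the richer in G and C, at 66.7% against 51% for TNFSF10. In all 6 members had windows, 13 of them. An interferon-stimulated response element was also found in 1 of the 3 CASP8 windows, at position -3, together with a gamma-activated sequence (TTCNNNGAA, 7.66% of all windows) at -200 that does not overlap it. TNFSF10 rose and CASP8 fell, and whether the motif has a part in either change was not tested. An NF-kappaB consensus (11.3% of all windows) was found in 1 of the 4 windows of CFLAR and in 1 of the 3 of FAS. AP-1 matches, with any middle base, were found in 5 of the 13 windows, of FADD, CASP8, CFLAR and FAS. Those of FADD, CFLAR and FAS read TGAATCA, and those of CASP8 read TGAGTCA and TGACTCA. The single MLKL window held none of the 4 motifs.

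FADD, the adaptor that links the receptors to caspase-8, changed the most. Its FPKM was 13.1, 14 and 13.2 in sh-NC and 28.9, 30.3 and 27.2 in sh-TRAF2, from 795, 853 and 840 reads and 1721, 1773 and 1630 reads. All sh-TRAF2 samples lay far above all sh-NC samples. The mean rose from 13.4 ± 0.472 to 28.8 ± 1.53 FPKM (SD, n = 3), or by 114.6%, with a log2 fold change of 1.10 (standard error 0.0524, limma adjusted p = 4.32e-06). This was the 99th highest log2 fold change of the 11870 genes tested. It stayed between 1.06 and 1.14 with each sample left out in turn, and was called under all 15 alternatives. In sh-NC the samples differed by 3.52% (coefficient of variation), close to the 3.47% that counting these reads alone would give. In sh-TRAF2 they differed by 5.31%, although counting error is smaller there because the reads are more. Exons of FADD share 1011 bases with an antisense gene, AP000879.1, in GENCODE 29, which was not analysed here, so reads of the pair cannot be told apart unless strand was used.

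The nearest tested genes on either side of FADD on chromosome 11, in the RefSeq order and looked up after its values were seen, were LTO1, 12 places away, and PPFIA1, 2 places away, and neither passed the test. LTO1 had 12.5 ± 1.11 FPKM in sh-NC and 12 ± 0.857 in sh-TRAF2 (SD, n = 3), with a log2 fold change of -0.05 and a limma adjusted p of 0.608. PPFIA1 had 14.5 ± 0.812 and 13.9 ± 0.566 FPKM, with a log2 fold change of -0.06 and a limma adjusted p of 0.418. Beside other members some of the nearest tested genes did pass, among them CHMP7 near TNFRSF10A and TNFRSF10B (log2 fold change 0.77, limma adjusted p = 2.80e-05) and RFWD3 near MLKL (0.36, limma adjusted p = 2.95e-04).

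Over the 6 samples, the genes with log2 values closest to those of FADD, centred on the sh-NC mean, were FAM3C, PAIP1 and NES among 11869 compared. Their root mean square distances were 0.0601, 0.0649 and 0.0656 on the log2 scale. NES encodes the intermediate filament nestin and PAIP1 a partner of the poly(A)-binding protein, and the 3 genes rose by 1.11, 1.11 and 1.12 on the log2 scale. The closest to TNFRSF10B were UGGT1 (0.00889), HNRNPD (0.0162) and WNK1 (0.0183), each with a log2 fold change of -0.21. Since closeness was taken over all 6 samples, like fold changes follow from the choice of these genes.

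CASP8, the initiator caspase, fell. Its FPKM was 7.78, 8.16 and 7.89 in sh-NC and 6.58, 5.79 and 5.98 in sh-TRAF2, from 694 to 1024 reads. The groups did not overlap. The mean went from 7.94 ± 0.195 to 6.12 ± 0.413 FPKM (SD, n = 3), a change of -23%, with a log2 fold change of -0.37 (standard error 0.0624, limma adjusted p = 0.00179). Without 1 sample it stayed between -0.43 and -0.34, and the call held in all 6 such fits.

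CFLAR, the inhibitor and modulator of caspase-8, moved the other way. Its FPKM was 4.74, 4.97 and 4.26 in sh-NC and 5.57, 5.76 and 5.29 in sh-TRAF2. The groups did not overlap, with the sh-TRAF2 samples higher. The mean rose from 4.66 ± 0.363 to 5.54 ± 0.241 FPKM (SD, n = 3), or by 18.9%, with a log2 fold change of 0.25 (standard error 0.0732, limma adjusted p = 0.0247). The call held in 2 of the 6 fits without 1 sample, and was lost without sh-NC replicate 1 or 3 or sh-TRAF2 replicate 1 or 2, where limma adjusted p reached 0.08 and the log2 fold change ran from 0.19 to 0.26. The step of its FPKM values implies a length of 23.2 kb, so its FPKM understates its transcripts if short ones prevail. In reads it ranked second among the members, with 3637 to 4544 per sample. The values are per gene, and the long and short forms of c-FLIP cannot be separated. CFLAR also shares 777 exon bases with the antisense gene CFLAR-AS1, which had 45, 20 and 14 reads in sh-NC and 67, 55 and 42 in sh-TRAF2 and rose by 1.12 on the log2 scale (limma adjusted p = 0.0314). Its part in the CFLAR values was not tested.

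CFLAR, CASP10 and CASP8 lie on chromosome 2 in that order. CASP10, another initiator caspase, had 16 reads over the sh-NC samples and 16 over the sh-TRAF2 samples, so the 3 genes of this cluster were higher, near 0 and lower in sh-TRAF2. The ratio of CFLAR to CASP8, both in FPKM, was 0.61, 0.609 and 0.54 in sh-NC and 0.846, 0.995 and 0.884 in sh-TRAF2. All sh-TRAF2 samples were higher, and the difference in the log2 ratio was 0.62, from -0.76 ± 0.10 to -0.14 ± 0.12 (SD, n = 3). The exact two-sided permutation test gave p = 0.1, the smallest that 3 samples against 3 allow (adjusted over the 4 ratios compared, 0.133). The ratio of CASP8 to FADD was 0.595, 0.584 and 0.596 in sh-NC and 0.227, 0.192 and 0.22 in sh-TRAF2. It was lower in every sh-TRAF2 sample, with a difference in the log2 ratio of -1.47 (exact permutation p = 0.1, adjusted 0.133). Since the FPKM of CFLAR is affected by its length, only the change of its ratio between groups can be read, not its level. The other ratios set TNFRSF10B against TNFRSF10A and TNFRSF10D and rest on the few reads given above. The first differed by 0.03 on the log2 scale (exact permutation p = 1) and the second by -0.56 (exact permutation p = 0.1, adjusted 0.133). Their size is set by the pseudocount: with 1 in place of 0.1 they were -0.17 and -0.25, and with 0.01 they were 0.74 and -1.82.

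MLKL, the executioner of necroptosis, had 5.89, 5.71 and 4.75 FPKM in sh-NC and 6.03, 6.90 and 6.31 in sh-TRAF2, from 464 to 622 reads. The groups did not overlap, but the highest sh-NC and the lowest sh-TRAF2 sample nearly met. The means were 5.45 ± 0.612 and 6.41 ± 0.441 FPKM (SD, n = 3). The log2 fold change of 0.24 (standard error 0.0911, limma adjusted p = 0.0655) did not pass the test, nor did it under any of the 15 alternatives. ZBP1, a sensor that can engage RIPK3, had 3 reads over the sh-NC samples and 4 over the sh-TRAF2 samples.

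The genes around the members were taken from lists by role. Of the 10 other receptors and ligands, 6 were tested, of which 2 rose and 1 (TNFRSF11B, above) fell, with a median log2 fold change of 0.13. The 3 called of 6 stand against 44.6% of all genes. TNF, the ligand of TNFRSF1A, had 12.1, 12.3 and 11 FPKM in sh-NC and 19.3, 25.3 and 20.6 in sh-TRAF2, a log2 fold change of 0.87 (standard error 0.0964, limma adjusted p = 2.26e-04). TRADD, the adaptor of TNFRSF1A, rose by 0.35 (limma adjusted p = 0.00161). Its receptor TNFRSF1A had 24.8 ± 1.36 and 25.3 ± 0.385 FPKM (SD, n = 3) and did not pass the test. FASLG, which encodes FAS ligand, had 1 read in sh-NC and 3 in sh-TRAF2.

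Of the 15 caspases and their regulators, 14 were tested, and they moved in both directions: 5 rose and 6 fell, with a median log2 fold change of -0.04. The share called, 11 of 14, stands against 44.6% of all genes. BID, the caspase-8 substrate that carries the signal to mitochondria, fell from 11.5 ± 0.807 to 7.63 ± 0.297 FPKM (SD, n = 3), with a log2 fold change of -0.58 (standard error 0.0636, limma adjusted p = 2.10e-04). The ubiquitin ligases that TRAF2 recruits moved apart, with BIRC2 at 0.35 (limma adjusted p = 1.23e-04) and BIRC3 at -0.47 (limma adjusted p = 7.54e-04). PEA15, a death effector domain protein that can bind FADD and caspase-8, was among the most abundant of these genes, at 324.7 to 366.8 FPKM, and rose by only 0.09 (limma adjusted p = 0.047). That call was lost under 9 of the 15 alternatives. The count of 11 fell to between 6 and 8 when any 1 sample was left out.

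**Figure D2:**
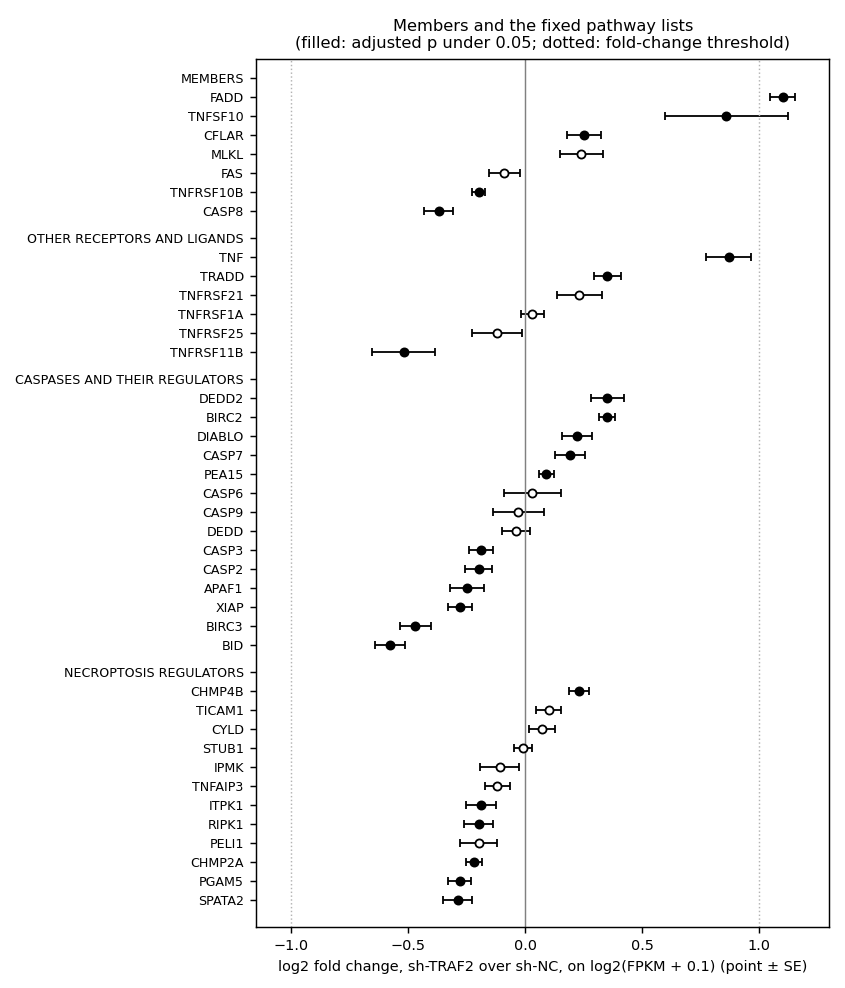
Log2 fold change, sh-TRAF2 over sh-NC, on log2(FPKM + 0.1), with its standard error, for the 7 tested members and the tested genes of 3 pathway lists, with filled points for an adjusted p under 0.05 and dotted lines at the fold-change threshold of 1. FADD, at 1.10, is the only point beyond a dotted line, followed by TNF (0.87) and TNFSF10 (0.86), while CASP8 (-0.37), BIRC3 (-0.47) and BID (-0.58) lie to the left.

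Of the 13 regulators of necroptosis, 12 were tested, of which 1 rose and 5 fell, where 23.7% and 20.9% of all genes did, with a median log2 fold change of -0.16. The 6 called of 12 are near the 44.6% of all genes called in either direction. CHMP4B and CHMP2A, both subunits of the membrane-repair complex ESCRT-III, moved in opposite directions, at 0.23 (limma adjusted p = 0.00323) and -0.22 (limma adjusted p = 0.00157). PGAM5, a mitochondrial phosphatase, fell by 0.28 (limma adjusted p = 0.00248). RIPK1, the kinase that links TNF receptor signalling to RIPK3 and MLKL, had 8.06, 7.45 and 8.66 FPKM in sh-NC and 6.86, 6.98 and 7.06 in sh-TRAF2. Its log2 fold change of -0.20 (standard error 0.0637, limma adjusted p = 0.0305) held its call in 1 of the 6 fits without 1 sample, that without sh-NC replicate 2.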

How the data were processed

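RNA from 3 sh-NC and 3 sh-TRAF2 U251 samples was made into libraries with the VAHTS Universal V6 kit and sequenced by OE Biotech. The authors deposited 1 table of FPKM per gene and sample, with annotation columns that were not used. The submitters' processing notes name HISAT2, HTSeq, R 3.2.0 and DESeq2, without roles. The genome build, the annotation and the use of strand are not given in the sources used here. Samples were grouped by their GEO titles, and no column was left without a sample.

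From the deposited FPKM, sh-TRAF2 was compared with sh-NC by limma 3.58.1 in R 4.3.3 (lmFit, eBayes with a trend, two-sided) on log2(FPKM + 0.1). Kept were 11870 genes whose FPKM averaged 0.5 or more, with Benjamini-Hochberg adjustment over them. The pseudocount understates the change of low genes. Single genes and ratios used exact two-sided permutation over the 20 assignments, with a smallest p of 0.1. Reads per gene were recovered from the FPKM steps, and for 2643 genes above 0 in 1 sample only they were set to the lowest possible. In simulated data 97.3% of 1909 genes came out exactly. Reads on genes ran from 33999558 to 36823562 per sample, and fold changes resting on under about 10 reads are imprecise. Intervals and limits of detection cover counting error only.

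The members and lists were chosen with earlier results of these data known. The lists were other receptors and ligands (10 genes), caspases and their regulators (15), necroptosis regulators (13), interferon-stimulated genes (24), glioma markers (8) and other cell type markers (9). RIPK3, AQP4 and CD3E were not analysed here. Named are all members, TRAF2, the 3 called genes of each list with the smallest adjusted p, the list genes that act directly on a member, and the 3 genes most like the most significant member in each direction. Other genes named (marker genes, TNFRSF1A, FASLG, neighbours and overlapping genes) were chosen after values were seen. As alternatives, the pseudocount was set to 1 or 0.01, the filter was dropped or raised to 1 FPKM, values were rescaled to TPM or quantile normalized, a replicate block was added, the trend was dropped, limma-voom was run on recovered reads (14130 genes), and single samples were left out. Start-site windows came from RefSeq (GRCh38.p14) and transcripts from GENCODE 29. Windows of TNFRSF10A, TNFRSF10B and RIPK3 were not used here. Tables were handled in Python 3.11.15 with pandas 2.3.3 and numpy 2.4.6, permutation tests were run in scipy 1.17.1, and matplotlib 3.10.9 drew the figures.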

Additional observations from a re-analysis of the deposited data

How the results depend on the processing

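The calls of FADD, CASP8 and TNFRSF10B held under all 15 alternatives, and FAS and MLKL passed under none. CFLAR lost its call in 5 of the 15 and TNFSF10 in 6, among them the fit with no filter on low values, where 1 member in place of 3 was higher. With each sample left out in turn, 1 to 2 members were higher, 2 to 2 lower and 1 to 2 past both thresholds of the study, the second being TNFSF10 without sh-NC replicate 3 or sh-TRAF2 replicate 1. The called genes among caspases and their regulators were 11, against 7 with no filter and 6 to 8 without a sample. The same ranges were 3 to 4 for other receptors and ligands, 4 to 6 for necroptosis regulators and 16 to 21 for interferon-stimulated genes. The TRAF2 log2 fold change ran from -2.33 to -2.18, that of the ratio of CFLAR to CASP8 from 0.55 to 0.67, of CASP8 to FADD from -1.52 to -1.39, and of TNFRSF10B to TNFRSF10D from -0.67 to -0.46. With a pseudocount of 1 or 0.01 the last was -0.25 or -1.82. The ratio of TNFRSF10B to TNFRSF10A, 0.03, was 0.74 with a pseudocount of 0.01 and turned to -0.17 with a pseudocount of 1, to -0.18 without sh-NC replicate 1 and to -0.01 without sh-TRAF2 replicate 3 (range without 1 sample -0.18 to 0.18), on at most 6 reads of TNFRSF10A per sample. Quantile normalization was not run for the ratios with TNFRSF10A or TNFRSF10D, which lie below the filter. The cause of these changes was not tested.

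Over all tested genes, samples with the same replicate number did not deviate together (correlations -0.081, 0.072 and 0.073). No pairing by number was thus seen, but these correlations cannot exclude one that acts on some genes only. With the replicate number as a block, 3 members were higher and 2 lower, with limma adjusted p of 0.0531 for MLKL and 0.00615 for TNFSF10. Reads limit what can be said of TNFRSF10A and its neighbours, and 3 samples per group limit exact permutation tests to p = 0.1.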
